A study of Mus musculus with 16 samples.

Results

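Genes of the lysosome and of autophagy were followed in the liver RNA of wild-type (WT) mice and of mice lacking Zfp36l1 in the liver, fed a control or an ethanol diet. The list held 36 genes picked by symbol: 6 lysosomal membrane proteins, 8 proteases, 6 glycosidases, 5 genes of lipid handling, 2 transcription factors and 9 autophagy genes. All 36 were found among the 35275 gene IDs of the expression table, and all 36 were among the 11298 genes kept for the test. After ethanol 7 of them rose in WT liver, and in the mean of both genotypes, when 1 aberrant WT ethanol library was left out: the proteases Ctsl and Ctsz, the glycosidases Hexa, Gusb, Gla and Neu1, and the autophagy receptor Sqstm1. These are 19.4% of the 36, where 9.48% of all kept genes were called in WT and 20.5% in the mean of both genotypes, with 7.23% and 14.8% called higher. With every library in the fit, Hexa rose in WT liver, and Hexa, Ctsz and Gusb rose in the mean of both genotypes (all kept genes: 4.18% and 7.78%). None of the 36 passed the test between the genotypes on either diet in either fit.

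The study compared 4 groups with n = 4 liver libraries each: WT mice on the control diet (WT control), WT mice on the ethanol diet (WT ethanol), and mice with a liver-specific knockout of Zfp36l1 (LKO) on the same diets (LKO control, LKO ethanol). Libraries are named by their group and a number from 1 to 4 in record order, and the labels state no pairing. The labels give neither the driver of the deletion nor the mice's sex, age or strain, the composition of the diets or the feeding time. They also do not state that each library came from a separate mouse, so p-values measure the spread between these libraries. Liver tissue holds several cell types, and fewer cells of a type cannot be told apart from less RNA per cell in such bulk samples.

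Levels are FPKM, fragment counts scaled to the length of the gene and the size of the library, so they can be compared between genes per length. Differences are on the log2(FPKM + 1) scale, each given with its standard error (SE) from a limma fit over all genes kept, a scale that understates the change of low genes such as Gla. The call threshold was an adjusted p of 0.05 (Benjamini-Hochberg over 11298 genes), and the share of all kept genes called in the same comparison is given as the background. WT ethanol library 2 stood apart from the rest: it held 9884479 reads where the other 15 held 19069828 to 24768501, mitochondrial mRNAs took 22.5% of its reads against 3.64% to 6.97%, and its Spearman correlation with the others was at most 0.721 where the other 15 correlated at 0.858 or more with each other. Results are therefore given for all 16 libraries and for the 15 libraries without it. The libraries also fell on 2 sides of an axis that held 40.0% of the variance within groups, with libraries 1 and 2 of each group on one side (side A) and libraries 3 and 4 on the other (side B). The labels name no batch. Zfp36l1 itself lay at 9.30 to 25.5 FPKM in the 8 WT libraries and at 0.572 to 1.76 in the 8 LKO libraries.

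Lysosomes are acid compartments in which proteases, glycosidases and lipases break down material from outside the cell and from within it. Autophagy delivers the inner material: a membrane grows around cargo, closes with the help of lipid-bound LC3 and GABARAP proteins, and fuses with the lysosome. TFEB and TFE3 are transcription factors that enter the nucleus when lysosomes are stressed or nutrients are short, and they bind sequences with the core CACGTG in front of many lysosomal genes, the best known being the CLEAR motif. In liver, autophagy removes damaged mitochondria, protein aggregates and lipid droplets, and both hepatocytes and Kupffer cells, the resident macrophages, are rich in lysosomes.

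Promoters were read to see which members carry a sequence of the kind that TFEB and TFE3 bind. RefSeq promoter windows on GRCm38.p6, each 300 bases long with 250 bases before the start site and 50 after it, were matched by symbol for 30 of the 36 members. Asah1, Becn1, Ctsb, Ctsh, Map1lc3a and Npc1 had no entry. The sequence TCACGTG, searched on both strands, was in a window of 9 of the 30 members (30.0%), namely Atg7, Atp6v0d1, Ctsa, Ctsd, Gaa, Gla, Glb1, Lamp1 and Mcoln1, and in 7.16% of the 8660 kept genes with a window (3.77% of all 32851 windows). Its core CACGTG, which reads the same on both strands and lies inside every TCACGTG, was in a window of 12 of the 30 members, the further 3 being Atg5, Ctsf and Ctsl, against 12.1% of the kept genes (7.15% of all windows). The full palindromic CLEAR motif of 10 bases was in none of the 30 members' windows and in 0.808% of the kept genes. Lamp1 held the densest cluster, with 4 copies within 61 bases of its start site, and Gla held 2 copies. The stretches are printed 5′ to 3′ on the gene's strand, with the motif in capitals, for Lamp1, which held the most copies, for Gla and Ctsl, the raised members with a match, and for Ctsd and Mcoln1 as further examples.
Lamp1, chr8:13159081-13159160, plus strand: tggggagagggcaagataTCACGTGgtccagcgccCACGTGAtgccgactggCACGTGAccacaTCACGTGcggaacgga
Gla, chrX:134601166-134601245, minus strand: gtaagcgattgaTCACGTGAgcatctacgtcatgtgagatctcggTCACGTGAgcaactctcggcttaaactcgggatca
Ctsl, chr13:64370739-64370768, minus strand: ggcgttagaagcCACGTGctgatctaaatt
Ctsd, chr7:142387908-142387937, minus strand: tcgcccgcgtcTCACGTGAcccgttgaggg
Mcoln1, chr8:3500436-3500465, plus strand: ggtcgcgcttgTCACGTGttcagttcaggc
Of the 7 members that rose, all had a window. Gla held TCACGTG in it, Ctsl held the core only, and Hexa, Neu1, Gusb, Ctsz and Sqstm1 held neither. Of the 8 further members with TCACGTG, none was called in any comparison of the 16- or the 15-library fit, while a term for the side, described further on, brought calls after ethanol for Ctsd, Lamp1 and Mcoln1 and, in the mean of both genotypes, Atg7. A match describes these letters and says nothing of binding.

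The 36 members spanned levels from 1.85 FPKM for Gla to 265 for Ctsl (medians of 16 libraries). Ctsl, Lamp1 (253) and Ctsd (250.5) stood at the top, followed by Psap (164), Lamp2 (161), Gabarapl1 (155), Ctsz (146), Sqstm1 (143) and Ctsb (129.6). The per-library ranges of these neighbours overlapped, from 92.6 to 679 FPKM for Ctsl to 73.1 to 226 for Ctsb. Wipi1, Tfeb, Tfe3 and Gla were the lowest, with medians of 4.75, 3.97, 3.17 and 1.85 FPKM. Gla rested on 36 to 262 reads per library and Tfe3 on 73 to 835, whereas Ctsl rested on 1805 to 32147.

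After ethanol, 2 proteases, 4 glycosidases and 1 autophagy receptor rose in WT liver without the aberrant library, and the other 29 members did not pass the test. In the 15-library fit 7 of 36 members rose in WT liver (19.4%) and none fell, against a background of 9.48% called (7.23% higher). In the 16-library fit 1 of 36 rose, against 4.18% (2.58% higher). Of all kept genes, 817 were called higher and 254 lower among 15 libraries, and 578 and 520 after quantile normalization, which left 6 of the 7 members called, Gla not among them (0.56 (SE 0.19, adjusted p = 0.0781)). Across the 36 the median difference was 0.42 without the aberrant library, with 30 of 36 above 0, where all kept genes had a median of 0.17. With all 16 libraries it was 0.21, with 23 of 36 above 0, against -0.02 for all kept genes. By role, the 15-library medians in WT were 0.74 for the glycosidases (4 of 6 rose), 0.58 for the proteases (2 of 8), 0.42 for the autophagy genes (1 of 9), 0.34 for lipid handling (0 of 5), 0.18 for the transcription factors (0 of 2) and 0.15 for the membrane proteins (0 of 6).

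Ctsl (ENSMUSG00000021477, chr13:64359337-64370890, minus strand) encodes cathepsin L, a cysteine protease that digests much of the protein delivered to lysosomes. Its FPKM was 171, 252, 237 and 201 in the WT control libraries and 527, 92.6, 672 and 649 in the WT ethanol libraries. LKO control libraries held 267, 251, 247 and 263 and LKO ethanol libraries 463, 679, 483 and 319.6. All 7 ethanol libraries other than WT ethanol library 2 lay above all 8 control libraries, and that library lay below them all. The WT difference was 1.52 (SE 0.22, adjusted p = 0.00221) in the 15-library fit, or 2.87-fold with a 95% interval of 1.04 to 2.0 in log2, and 0.84 (SE 0.47, adjusted p = 0.346) with all 16. The LKO difference of 0.87 was called among 15 libraries (SE 0.21, adjusted p = 0.0326) and not among 16 (adjusted p = 0.639).

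Ctsz (ENSMUSG00000016256, chr2:174427493-174439039, minus strand) encodes cathepsin Z, a cysteine carboxypeptidase found in many cells and abundant in macrophages. WT control libraries held 89.3, 107, 184 and 136 FPKM and WT ethanol libraries 173, 246, 236 and 312. LKO control libraries held 102, 103, 128 and 120.3 and LKO ethanol libraries 123, 211, 157 and 155. In each genotype the diets overlapped, through WT control library 3 and LKO ethanol library 1. Ctsz rose in WT among 15 libraries by 0.90 (SE 0.26, adjusted p = 0.0408), and the WT value among 16 was 0.92 (SE 0.28, adjusted p = 0.0721).

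Among the glycosidases, Hexa (ENSMUSG00000025232, chr9:59539540-59565109, plus strand) encodes the alpha subunit of beta-hexosaminidase, which trims the ganglioside GM2. It was at 18.5, 20.9, 31.3 and 22.8 FPKM in WT control and 32.5, 102, 55.4 and 67.9 in WT ethanol libraries, so that the WT diets did not overlap and the aberrant library was the highest. LKO control libraries held 25.5, 23.5, 25.1 and 28.7 and LKO ethanol libraries 26.7, 45.0, 31.7 and 34.9, with LKO ethanol library 1 inside the control range. The WT rise was 1.08 (SE 0.24, adjusted p = 0.0143) among 15 libraries and 1.34 (SE 0.30, adjusted p = 0.0207) among 16. Gusb (ENSMUSG00000025534, chr5:129989011-130003049, minus strand), beta-glucuronidase, acts on the sugar chains of proteoglycans. Its FPKM was 7.03, 10.7, 9.67 and 9.57 in WT control and 10.9, 13.6, 24.2 and 30.1 in WT ethanol libraries, then 11.1, 10.1, 11.8 and 11.9 in LKO control and 12.1, 20.4, 15.2 and 15.5 in LKO ethanol libraries. The diets did not overlap in either genotype, although WT ethanol library 1 and LKO ethanol library 1 lay just above the highest control library of their genotype. Gusb rose in WT by 1.05 (SE 0.27, adjusted p = 0.0235) among 15 libraries, with 0.92 (SE 0.28, adjusted p = 0.0755) among 16.

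Gla (ENSMUSG00000031266, chrX:134588149-134601125, minus strand) encodes alpha-galactosidase A, which removes terminal galactose from globotriaosylceramide. WT control libraries held 2.03, 2.26, 1.41 and 1.24 FPKM, and WT ethanol libraries 4.24, 1.15, 3.01 and 3.61. In LKO liver the values were 1.41, 1.32, 1.39 and 1.04 and, on ethanol, 2.49, 2.6, 1.91 and 1.79. Apart from WT ethanol library 2, the lowest of its group, every ethanol library lay above every control library of its genotype. The WT rise among 15 libraries was 0.77 (SE 0.17, adjusted p = 0.0117), and the value among 16 was 0.49 (SE 0.24, adjusted p = 0.265). Neu1 (ENSMUSG00000007038, chr17:34931253-34935953, plus strand) is the lysosomal sialidase, with 8.82, 9.51, 10.7 and 10.7 FPKM in WT control and 16.9, 6.51, 17.5 and 16.5 in WT ethanol libraries, 3 of the ethanol libraries lying close to each other and above all WT controls. LKO control libraries held 10.4, 10.9, 10.4 and 11.6 and LKO ethanol libraries 12.8, 14.8, 11.8 and 11.8, the lowest of which lay just above the highest control. Neu1 rose in WT by 0.72 (SE 0.14, adjusted p = 0.00687) among 15 libraries, and had 0.41 (SE 0.26, adjusted p = 0.408) among 16.

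Sqstm1 (ENSMUSG00000015837, chr11:50199366-50210827, minus strand) encodes p62, which binds ubiquitin-tagged cargo and LC3 and is itself degraded by autophagy. It stood at 106, 120.1, 141 and 113 FPKM in WT control and 366, 60.3, 297 and 338 in WT ethanol libraries. LKO control libraries stood at 141, 135, 131 and 144 and LKO ethanol libraries at 299.9, 757, 211 and 161, with LKO ethanol library 2 far above the other 3. All ethanol libraries except WT ethanol library 2 lay above all 8 control libraries. The WT rise was 1.47 (SE 0.36, adjusted p = 0.0208) among 15 libraries, or 2.77-fold, and 0.86 (SE 0.51, adjusted p = 0.370) among 16. The LKO difference of 1.1 was not called (adjusted p = 0.0816 among 15 and 0.523 among 16).

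**Figure D1:**
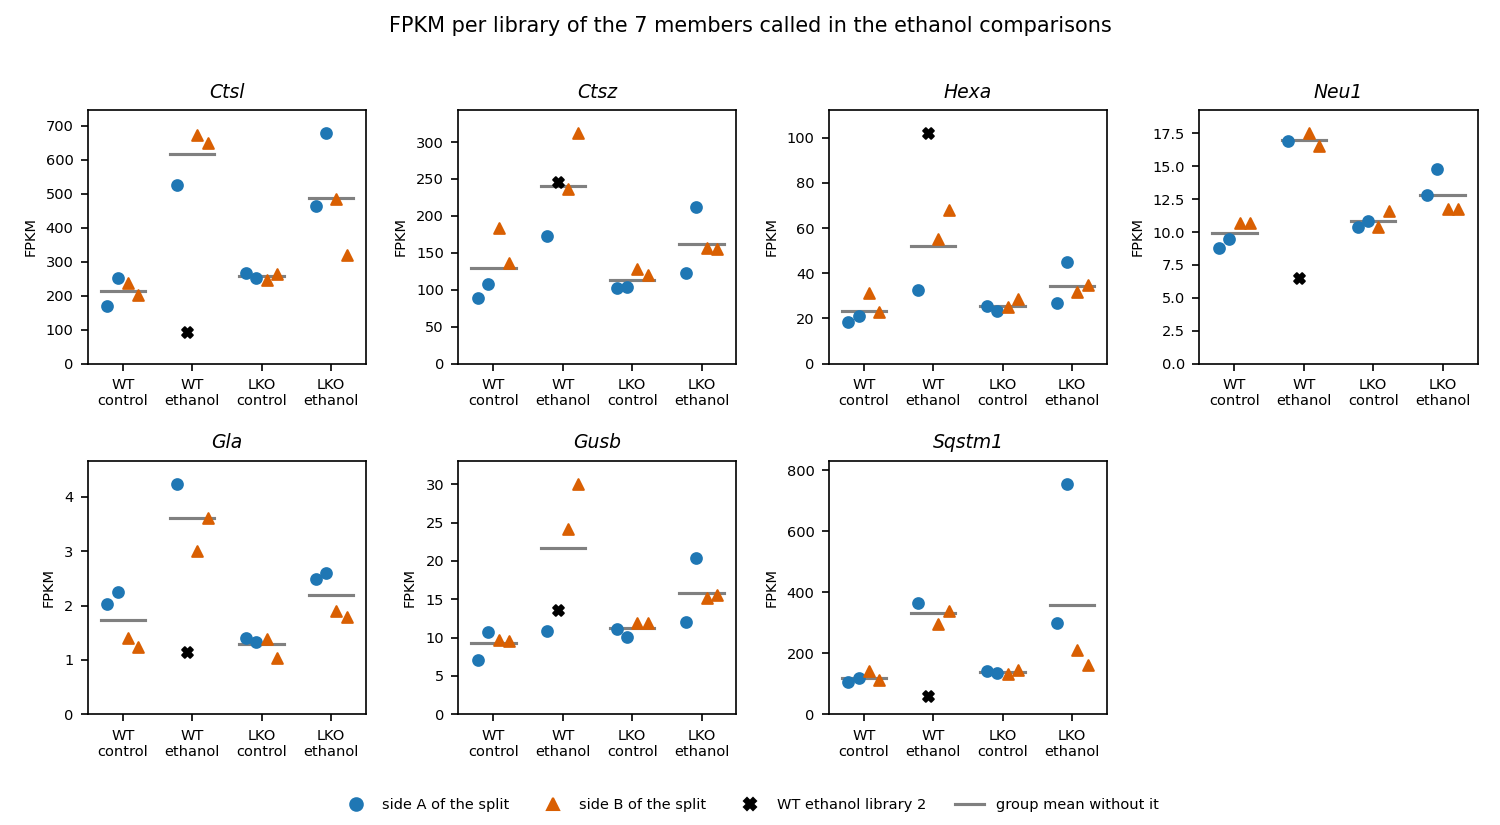
FPKM (linear axis from 0) of the 7 members that rose after ethanol, 1 panel per gene and 1 point per library in the 4 groups. Blue circles are side A, orange triangles side B, the black cross is WT ethanol library 2 and the grey line is the group mean without it. The ethanol libraries sit above the control libraries of their genotype for most points, and the cross sits low for Ctsl, Gla, Neu1 and Sqstm1 and high for Hexa.

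The WT calls rested on few ethanol libraries. Starting from 15 libraries and leaving out 1 more at a time, Ctsl and Neu1 remained called in WT in all 15 fits. Leaving out WT ethanol library 4 left 2 members called in WT, WT ethanol library 3 or WT control library 1 left 4, and WT ethanol library 1 left 15. The last of these fits held WT ethanol libraries 3 and 4 only, both on side B. The share of all kept genes called in these fits is not given here, so the counts do not set the members apart from other genes. Sqstm1 was no longer called without WT control library 1 (1.41, adjusted p = 0.0536) or WT ethanol library 4 (1.46, adjusted p = 0.0887), and Gla without WT ethanol library 4 (0.76, adjusted p = 0.0580). Hexa lost its call without WT ethanol library 3 (adjusted p = 0.0562) or library 4 (0.101), Gusb without these or WT control library 1, and Ctsz without any 1 of 10 libraries.

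Among the members of WT liver that did not pass the test, the proteases Ctsb (0.56 (SE 0.20, adjusted p = 0.0943) among 15 libraries) and Ctsd (0.60 (SE 0.27, adjusted p = 0.167)) and the phosphoinositide-binding Wipi1 (0.80 (SE 0.31, adjusted p = 0.118)), an early autophagy protein, had the next higher values beside Map1lc3a (0.66 (SE 0.33, adjusted p = 0.222)), Psap (0.67 (SE 0.34, adjusted p = 0.228)) and Ctss (0.70 (SE 0.49, adjusted p = 0.390)). Map1lc3a encodes LC3A, Psap the precursor of the saposins, and Ctss cathepsin S, a protease of antigen-presenting cells. The lowest values were those of Ulk1, the kinase that starts autophagy (-0.38 (SE 0.42, adjusted p = 0.607)), the aminopeptidase Ctsh (-0.27 (SE 0.23, adjusted p = 0.482)) and Tfeb. Among all 16 libraries the 3 highest were Hexa, Map1lc3a (0.93 (SE 0.36, adjusted p = 0.166)) and Gusb, and the 3 lowest were Lipa, the acid lipase of cholesterol esters and triglycerides (-0.82 (SE 0.46, adjusted p = 0.344)), Ulk1 (-0.71 (SE 0.44, adjusted p = 0.393)) and Npc1, which exports cholesterol from lysosomes (-0.54 (SE 0.54, adjusted p = 0.618)). Lipa was at 11.2 FPKM and Npc1 at 1.97 in the aberrant library, the lowest of 16 in each case.

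Tfeb, a transcription factor of the lysosomal programme, did not pass the test. Its FPKM was 5.02, 4.28, 5.54 and 6.62 in WT control, 3.12, 5.61, 6.91 and 3.99 in WT ethanol, 3.15, 3.68, 3.86 and 5.44 in LKO control and 3.95, 3.02, 3.12 and 3.60 in LKO ethanol libraries, and the diets overlapped in both genotypes. The WT difference was -0.21 (SE 0.22, adjusted p = 0.579) among 15 libraries and -0.14 (SE 0.22, adjusted p = 0.769) among 16, with a 15-library 95% interval of -0.67 to 0.25. Tfe3, its close relative, was at 2.10, 2.03, 3.77 and 3.47 in WT control, 2.65, 1.17, 5.43 and 6.35 in WT ethanol, 1.63, 1.64, 3.06 and 3.28 in LKO control and 2.08, 4.38, 3.27 and 3.46 in LKO ethanol libraries. Its values followed the sides, with libraries 3 and 4 above libraries 1 and 2 in both control groups and in WT ethanol. The WT difference was 0.56 (SE 0.28, adjusted p = 0.209) among 15 libraries and 0.22 (SE 0.33, adjusted p = 0.751) among 16. These levels are of mRNA, and the entry of either protein into the nucleus was not measured.

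Lamp1, a major glycoprotein of the lysosomal membrane and the member with 4 TCACGTG copies, did not pass the test. It was at 256, 264, 251 and 234 FPKM in WT control and 290.3, 49.9, 348 and 434 in WT ethanol libraries, and at 234, 260.3, 234 and 255 in LKO control and 237, 299.9, 228 and 234 in LKO ethanol libraries. The other 3 WT ethanol libraries lay above all WT controls and library 2 far below them, so the WT difference turned from -0.21 (SE 0.47, adjusted p = 0.842) among 16 libraries to 0.49 (SE 0.17, adjusted p = 0.0808) among 15. Map1lc3b, which encodes the autophagosome protein LC3B, was at 17.4, 20.7, 33.5 and 31.2 in WT control, 25.9, 14.3, 36.5 and 48.1 in WT ethanol, 22.0, 23.3, 30.9 and 35.5 in LKO control and 18.6, 22.5, 29.2 and 23.4 in LKO ethanol libraries. The diets overlapped in both genotypes, and the WT difference was 0.51 (SE 0.26, adjusted p = 0.238) among 15 libraries and 0.19 (SE 0.33, adjusted p = 0.783) among 16.

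**Figure D2:**
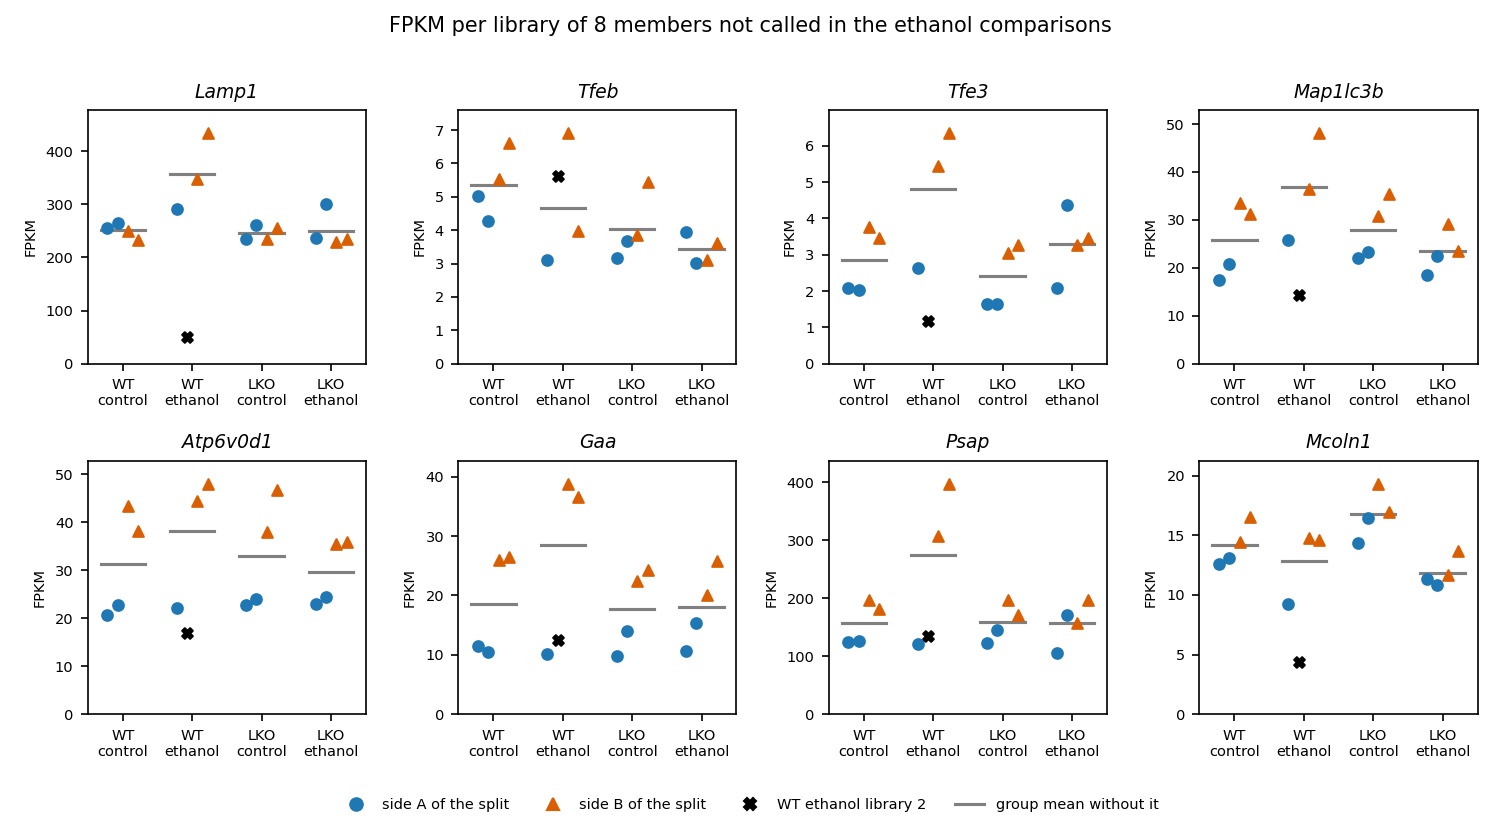
FPKM (linear axis from 0) per library for Lamp1, Tfeb, Tfe3, Map1lc3b, Atp6v0d1, Gaa, Psap and Mcoln1, with the groups and symbols of the plot of the raised members. Circles and triangles separate within all 4 groups for Gaa and Atp6v0d1, and Lamp1 of the black cross, at 49.9 FPKM, is the lowest of its panel.

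In LKO liver the same comparison gave fewer calls. Ctsl alone rose among 15 libraries, 1 of 36 members (2.78%) where 3.62% of all kept genes were called (2.22% higher), and 4 members had an unadjusted p under 0.05. Among 16 libraries limma called 0 of 36, with 1 at an unadjusted p under 0.05, 0 by voom and a background of 0.425% (0.168% higher). As many members lay above 0 as below (18 and 18), with a median of 0.00 against 0.06 for all kept genes. The 6 glycosidases had a median of 0.31, with Gla at 0.48 (SE 0.15, adjusted p = 0.101), Gusb at 0.44 (SE 0.25, adjusted p = 0.363), Hexa at 0.40 (SE 0.23, adjusted p = 0.370) and Neu1 at 0.22 (SE 0.13, adjusted p = 0.382) in the 15-library fit. The highest differences were those of Sqstm1, Ctsl and Ctsz (0.49 (SE 0.24, adjusted p = 0.289)). The lowest were those of Ctss (-0.52 (SE 0.45, adjusted p = 0.602)), Mcoln1 (-0.47 (SE 0.17, adjusted p = 0.135)) and Ctsh (-0.39 (SE 0.21, adjusted p = 0.342)). Tfeb was at -0.17 (SE 0.20, adjusted p = 0.714), Tfe3 at 0.35 (SE 0.26, adjusted p = 0.518), Map1lc3b at -0.23 (SE 0.24, adjusted p = 0.674) and Lamp1 at 0.01 (SE 0.16, adjusted p = 0.978). The LKO call of Ctsl was lost on leaving out any LKO control library or LKO ethanol library 1, 2 or 3, and without library 4 both Ctsl and Sqstm1 (1.39, adjusted p = 0.0185) were called.

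Mcoln1 encodes a calcium channel of the lysosomal membrane whose signal activates TFEB. Its FPKM was 14.4, 16.5, 19.3 and 17.0 in LKO control and 11.3, 10.8, 11.6 and 13.7 in LKO ethanol libraries, so every ethanol library lay below every control library, the only member with this order in LKO (all kept genes: 4.14%). WT control libraries held 12.6, 13.1, 14.4 and 16.5 and WT ethanol libraries 9.25, 4.38, 14.7 and 14.6, and the diets overlapped. The LKO difference did not pass the test among 15 or 16 libraries. With a term for the side of the axis, which was found in these same data, it was called (-0.47 (SE 0.11, adjusted p = 0.0204)).

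Groups that do not overlap give a view that needs no model. Among 15 libraries, every WT ethanol library lay above every WT control library for 8 of 36 members, namely Ctsl, Gla, Gusb, Hexa, Lamp1, Neu1, Sqstm1 and Wipi1, where 15.6% of all kept genes did so. Among 16 libraries this held for Gusb and Hexa (all kept genes: 5.62%). In LKO it held for 5 of 36, namely Ctsl, Gla, Gusb, Neu1 and Sqstm1 (all kept genes: 8.15%). Lower without overlap in WT were 0 of 36, where the share of all kept genes was 5.16% among 15 libraries and 4.45% among 16.

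Over both genotypes together, taken as the mean of the WT and LKO differences, 7 of 36 members rose among 15 libraries (19.4%). Of all kept genes 20.5% were called, 14.8% higher. Among 16 libraries 3 of 36 rose, against 7.78% (4.59% higher). The 15-library values were 1.19 (SE 0.15, adjusted p = 0.000202) for Ctsl, 1.29 (SE 0.25, adjusted p = 0.00233) for Sqstm1, 0.75 (SE 0.18, adjusted p = 0.00998) for Gusb, 0.74 (SE 0.17, adjusted p = 0.00646) for Hexa, 0.69 (SE 0.18, adjusted p = 0.0127) for Ctsz, 0.62 (SE 0.11, adjusted p = 0.00185) for Gla and 0.47 (SE 0.09, adjusted p = 0.00320) for Neu1. All 7 remained called when any 1 of the 15 libraries was left out as well. Among 16 libraries Hexa was at 0.87 (SE 0.21, adjusted p = 0.0198), Ctsz at 0.70 (SE 0.20, adjusted p = 0.0365) and Gusb at 0.68 (SE 0.20, adjusted p = 0.0445), while Sqstm1 (0.98 (SE 0.36, adjusted p = 0.107)) and Ctsl (0.85 (SE 0.34, adjusted p = 0.135)) did not pass. No member fell. The lowest 15-library values were those of Ctsh (-0.33 (SE 0.16, adjusted p = 0.149)), Ulk1 (-0.33 (SE 0.29, adjusted p = 0.460)) and Mcoln1 (-0.31 (SE 0.12, adjusted p = 0.0873)), and the lowest among 16 those of Lipa (-0.60 (SE 0.33, adjusted p = 0.311)), Ulk1 (-0.49 (SE 0.31, adjusted p = 0.399)) and Mcoln1 (-0.47 (SE 0.20, adjusted p = 0.172)). Tfeb was at -0.19 (SE 0.15, adjusted p = 0.394), Tfe3 at 0.46 (SE 0.19, adjusted p = 0.102), Map1lc3b at 0.14 (SE 0.18, adjusted p = 0.641) and Lamp1 at 0.25 (SE 0.12, adjusted p = 0.138) among 15 libraries.

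**Figure D3:**
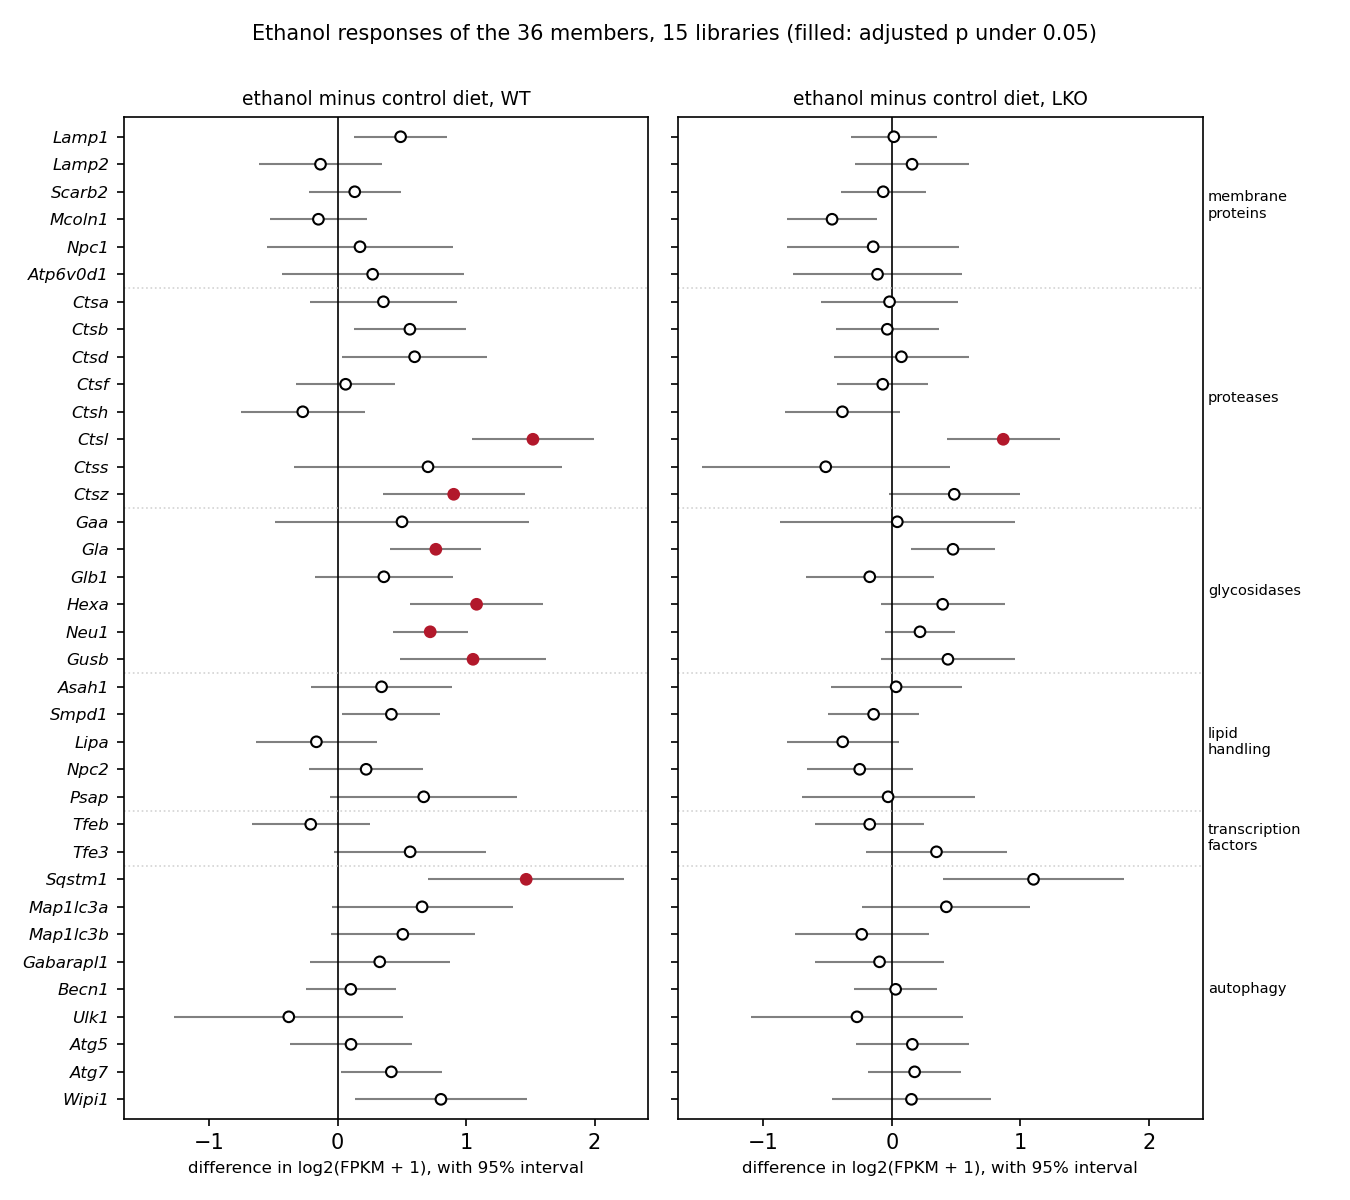
Ethanol minus control, as the log2 difference of FPKM + 1 with its 95% interval, for each of the 36 members in WT and in LKO liver (15-library fit), ordered by role. Filled points passed an adjusted p of 0.05: 7 in WT and Ctsl in LKO.

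On the control diet no member passed the test between the genotypes. Among 16 libraries limma called 0 of 36, with 0 at an unadjusted p under 0.05 and 0 by voom, against a background of 0.00885% (15 libraries: 0 of 36, 0 at an unadjusted p under 0.05, background 0.0443%). The highest differences of LKO from WT were those of Wipi1 (0.37 (SE 0.29, adjusted p = 0.735) among 15 libraries), Ctsl (0.27 (SE 0.21, adjusted p = 0.729)) and Gusb (0.27 (SE 0.25, adjusted p = 0.792)), and the lowest those of Tfeb (-0.34 (SE 0.20, adjusted p = 0.626)), Map1lc3a (-0.25 (SE 0.31, adjusted p = 0.864)) and Gla (-0.24 (SE 0.15, adjusted p = 0.665)). Lamp1 was at -0.03 with a 95% interval of -0.37 to 0.31, Sqstm1 at 0.20 (-0.51 to 0.91), Tfe3 at -0.18 (-0.73 to 0.36) and Map1lc3b at 0.14 (-0.38 to 0.66). For each of the 36 members the 2 groups overlapped, whereas 1.61% of all kept genes were higher and 7.64% lower in LKO without overlap.

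On the ethanol diet no member passed the test in the 15- or the 16-library fit either, though most lay lower in LKO. Other settings did call members here, namely a fit that weighted the libraries and a fit with a term for the side, both described further on. For the weighted fit, the share of all kept genes called is not given. Among 15 libraries limma called 0 of 36, with 8 at an unadjusted p under 0.05 and a background of 0.221%. Among 16 libraries it called 0, with 3 at an unadjusted p under 0.05, 0 by voom and a background of 0.0797%. The median over the members was -0.39 with 33 of 36 below 0 among 15 libraries, where all kept genes had a median of -0.23 and 9125 of 11298 below 0. After quantile normalization, which brought the median of all kept genes to 0.00, the members' median was -0.23 with 29 of 36 below 0. Among 16 libraries the members' median was -0.08 and that of all kept genes -0.03.

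Single members on the ethanol diet ran from Ctss (-1.04 (SE 0.49, adjusted p = 0.290)), Psap (-0.67 (SE 0.34, adjusted p = 0.318)) and Map1lc3b (-0.61 (SE 0.26, adjusted p = 0.266)) at the low end to Ulk1 (0.26 (SE 0.42, adjusted p = 0.727)), Lamp2 (0.10 (SE 0.23, adjusted p = 0.818)) and Atg5 (0.04 (SE 0.22, adjusted p = 0.930)) at the high end among 15 libraries. Gla and Neu1 were the members for which every LKO ethanol library lay below every WT ethanol library other than library 2 (all kept genes: 5.89%). Their differences were -0.53 (SE 0.17, adjusted p = 0.166) and -0.39 (SE 0.14, adjusted p = 0.205). Of the other raised members, Ctsl was at -0.38 (SE 0.22, adjusted p = 0.373), Hexa at -0.53 (SE 0.24, adjusted p = 0.282), Ctsz at -0.56 (SE 0.26, adjusted p = 0.290), Gusb at -0.35 (SE 0.27, adjusted p = 0.473) and Sqstm1 at -0.16 (SE 0.36, adjusted p = 0.808). Lamp1 was at -0.51 (SE 0.17, adjusted p = 0.184), Tfeb at -0.31 (SE 0.22, adjusted p = 0.440) and Tfe3 at -0.40 (SE 0.28, adjusted p = 0.435). Among 16 libraries the lowest were Hexa (-0.79 (SE 0.30, adjusted p = 0.332)), Map1lc3a (-0.76 (SE 0.36, adjusted p = 0.427)) and Ctsd (-0.74 (SE 0.33, adjusted p = 0.400)), and the highest Ulk1 (0.60), Npc1 (0.56) and Atg5 (0.49). Leaving out WT ethanol library 1 as well as library 2 gave 8 called members, Hexa among them at -0.83 (adjusted p = 0.0285), and leaving it out of the 16 gave Hexa alone at -1.07 (adjusted p = 0.0432). The former fit held WT ethanol libraries 3 and 4 only, both on side B, against LKO ethanol libraries of both sides. Genotype and side are therefore mixed in it. The share of all kept genes called in these fits is not given here, so the 8 do not set the members apart from other genes.

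Averaged over both diets, limma called 0 of 36 members between LKO and WT among 15 libraries, with 4 at an unadjusted p under 0.05 and a background of 1.07%, and 0 of 36 among 16, with 1 at an unadjusted p under 0.05, 0 by voom and a background of 0.142%. The lowest 15-library values were those of Ctss (-0.44 (SE 0.33, adjusted p = 0.424)), Gla (-0.39 (SE 0.11, adjusted p = 0.0947)) and Map1lc3a (-0.37 (SE 0.23, adjusted p = 0.321)), and the highest those of Ulk1 (0.21), Mcoln1 (0.07) and Wipi1 (0.04). Among 16 libraries the lowest were Map1lc3a (-0.50), Tfeb (-0.36 (SE 0.16, adjusted p = 0.450)) and Ctsz (-0.36), and the highest Ulk1 (0.38), Npc1 (0.36) and Sqstm1 (0.32). Tfeb was at -0.33 (SE 0.15, adjusted p = 0.206), Tfe3 at -0.29, Map1lc3b at -0.23, Lamp1 at -0.27 and Sqstm1 at 0.02 among 15 libraries.

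**Figure D4:**
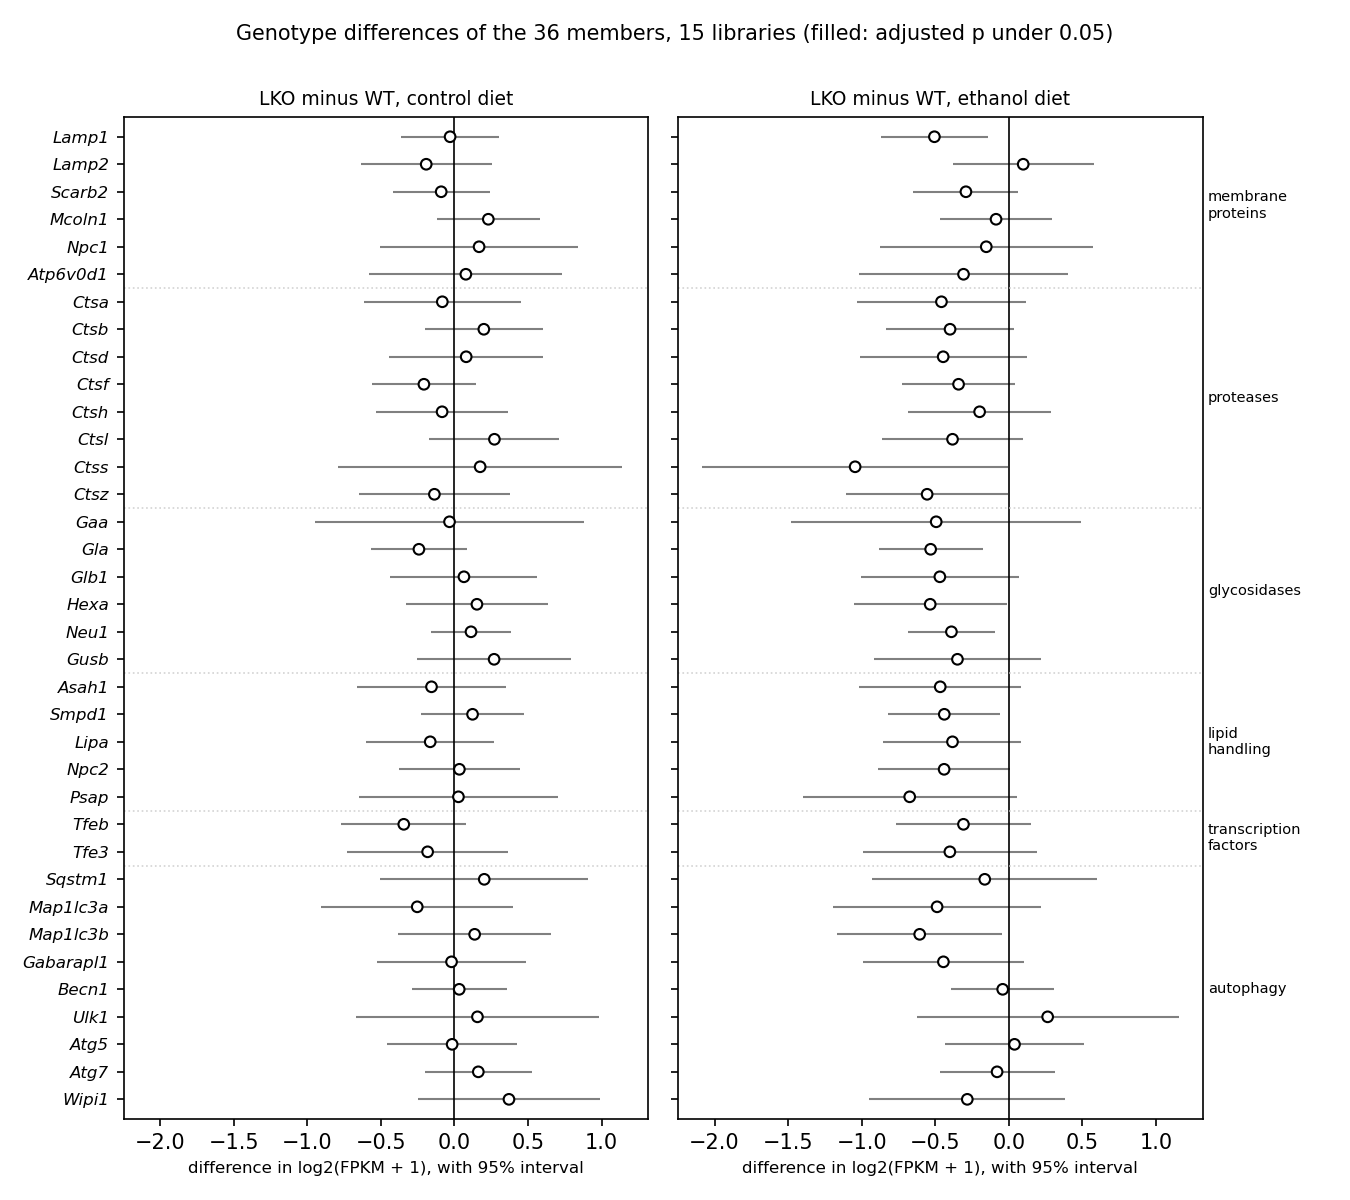
LKO minus WT, as the log2 difference of FPKM + 1 with its 95% interval, for each of the 36 members on the control and on the ethanol diet (15-library fit), ordered by role. No point is filled, since none passed an adjusted p of 0.05, and most ethanol points lie below 0.

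Whether the response to ethanol itself differed between the genotypes was tested by the interaction, the LKO response minus the WT response. No gene was called, member or other: 0 of 36 members and a background of 0% in the 15- and the 16-library fit, with 4 and 2 members at an unadjusted p under 0.05, and 0 by voom among 16. So in these fits the larger number of calls in WT does not show a smaller response in LKO. A fit that weighted the libraries, described further on, did call members for the interaction, but its share of all kept genes called is not given. The lowest 15-library values were those of Ctss (-1.22 (SE 0.67, adjusted p = 0.968)), Map1lc3b (-0.74 (SE 0.36, adjusted p = 0.968)) and Psap (-0.70 (SE 0.47, adjusted p = 0.968)), and the highest those of Lamp2 (0.29), Ulk1 (0.11) and Atg5 (0.05). Ctsl was at -0.65 (95% interval -1.30 to -0.00), Hexa at -0.69 (-1.40 to 0.02), Neu1 at -0.50 (-0.90 to -0.10) and Sqstm1 at -0.37 (-1.41 to 0.68). Tfeb was at 0.04, Tfe3 at -0.22 and Lamp1 at -0.48. Among 16 libraries the lowest were Hexa (-0.94 (SE 0.43, adjusted p = 0.927)), Ctsd (-0.82) and Ctss (-0.79), and the highest Lamp2 (0.65), Atg5 (0.51) and Ulk1 (0.44).

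Several members differed between the sides of the axis within groups by as much as the raised members differed between diets. Gaa, the glycogen-degrading alpha-glucosidase, was at 11.4, 10.6, 25.9 and 26.5 FPKM in WT control, 10.2, 12.6, 38.8 and 36.6 in WT ethanol, 9.85, 14.0, 22.4 and 24.4 in LKO control and 10.7, 15.4, 20.1 and 25.9 in LKO ethanol libraries, so libraries 3 and 4 lay above libraries 1 and 2 in all 4 groups. Its mean difference of side B from side A was 1.17, followed by Atp6v0d1, a subunit of the proton pump (0.82), Npc1 (0.77), Psap (0.74) and Map1lc3a (0.73). Ctss (-0.71), the acid ceramidase gene Asah1 (-0.52) and Ctsd (-0.45) had the lowest means, although Ctss (0.65) and Ctsd (0.14) were higher on side B in WT ethanol. The means of Ctsl (-0.03), Neu1 (0.01) and Lamp1 (0.03) were near 0 over groups of opposite sign, such as 0.33 in WT ethanol and -0.51 in LKO ethanol for Ctsl. The sides were found in these same data, so the side differences are descriptions. Within sides the WT ethanol difference of Ctsl was 1.34 on side A and 1.59 on side B, that of Sqstm1 1.69 and 1.32, of Gla 0.74 and 0.89, of Neu1 0.82 and 0.62, of Ctsz 0.81 and 0.78, of Hexa 0.70 and 1.17 and of Gusb 0.30 and 1.40. Side A of WT ethanol is 1 library here. In LKO the values on sides A and B were 1.11 and 0.62 for Ctsl, 1.78 and 0.42 for Sqstm1, 0.58 and 0.37 for Gla, 0.35 and 0.09 for Neu1, 0.64 and 0.33 for Ctsz, 0.49 and 0.30 for Hexa and 0.53 and 0.34 for Gusb.

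The side was found in these same libraries, so a term for it lowers the residual spread. Adjusted p-values from such a fit can therefore be too small. With the side as a term in the 15-library fit, 10 of 36 members rose in WT (background 19.7%, 15% higher), the 7 above with Ctsd, Lamp1 (0.49 (SE 0.15, adjusted p = 0.0323)) and Asah1. In LKO, 4 of 36 were called (background 10.7%, of which 6.53% higher and 4.14% lower), Ctsl, Gla and Sqstm1 higher and Mcoln1 lower. On the ethanol diet Gla was lower in LKO (-0.58 (SE 0.12, adjusted p = 0.0351), background 1.58%, 1.32% lower), with -0.57 on side A and -0.59 on side B. By contrast the genotype difference on ethanol turned between the sides for Ctsl (0.09 and -0.75), Hexa (0.09 and -0.86) and Gusb (0.49 and -0.78), as did the median of all kept genes (0.07 and -0.40).

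**Figure D5:**
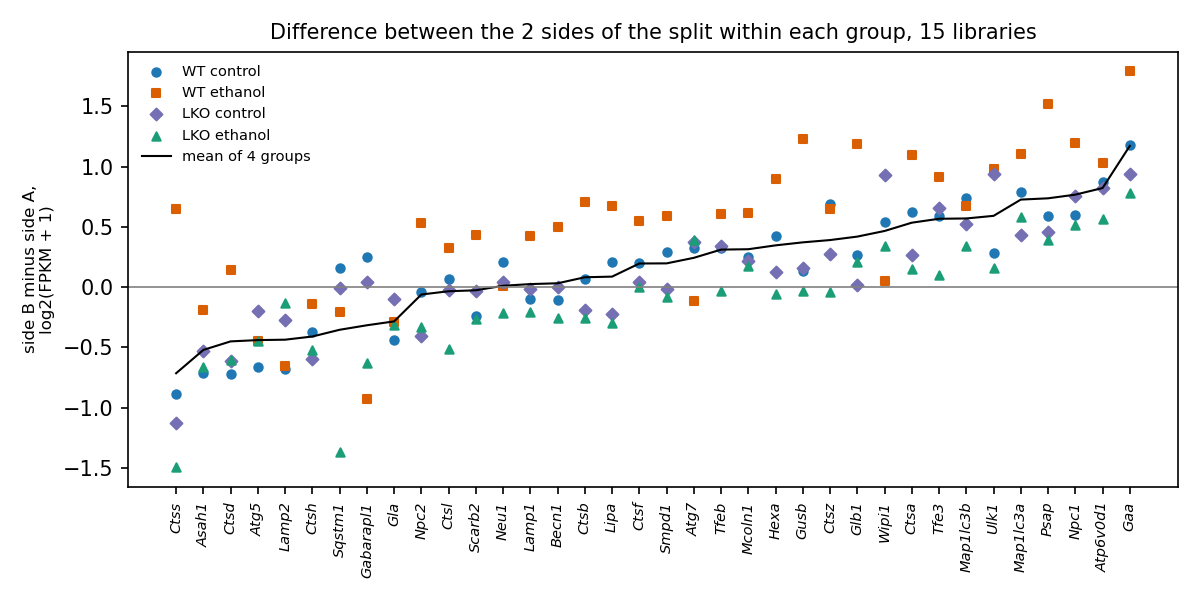
Difference of side B (libraries 3 and 4) from side A (libraries 1 and 2) within each of the 4 groups, as log2 of FPKM + 1, for the 36 members ordered by the mean over the groups (line). WT ethanol library 2 is left out. Gaa lies highest, at a mean of 1.17, and Ctss lowest, at -0.71.

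Further genes of the lysosome and of autophagy were read from lists of the same kind, which held 30, 27, 16, 16, 30, 13 and 26 genes before the filter. Of them 15 genes were called in WT among 15 libraries and 3 among 16, all of them higher. Of all kept genes 9.48% were called among 15 libraries (7.23% higher) and 4.18% among 16 (2.58% higher). Of 30 other hydrolases and cofactors, 3 rose in WT among 15 libraries (9.48% of all kept genes were called): Arsa, arylsulfatase A (1.69 (SE 0.36, adjusted p = 0.0111)), Gm2a, the GM2 activator that works with the Hexa product (0.74 (SE 0.20, adjusted p = 0.0290)), and Galns (1.03 (SE 0.31, adjusted p = 0.0462)). Their list had a median of 0.43. Of 25 other membrane proteins kept, 4 rose, among them Cd63, a tetraspanin of late endosomes (3.06 (SE 0.56, adjusted p = 0.00526)), the amino acid exporter Pqlc2 (0.85 (SE 0.19, adjusted p = 0.0144)) and Gpr137b. Cd63 was at 4.08, 6.30, 6.65 and 3.99 FPKM in WT control, 16.5, 21.5, 54.0 and 139 in WT ethanol, 5.11, 4.83, 5.48 and 4.10 in LKO control and 11, 41.8, 10.1 and 8.82 in LKO ethanol libraries, so each ethanol library lay above each control library. All 15 other subunits of the vacuolar proton pump that were kept lay above 0 in WT, and 2 rose, Atp6v1b2 (0.89 (SE 0.21, adjusted p = 0.0190)) and Atp6v0e (1.18 (SE 0.33, adjusted p = 0.0366)). The 16 genes that deliver enzymes to lysosomes had a median of 0.33 in WT, and of them Igf2r, the mannose 6-phosphate receptor, rose in the mean of both genotypes (0.75 (SE 0.22, adjusted p = 0.0236)), 1 of 16 (6.25%) where 14.8% of all kept genes were called higher.

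Genes of autophagy and of its control were read the same way, beside the 9.48% of all kept genes called in WT among 15 libraries. Of 30 core genes 2 rose (6.67%), Vmp1 (1.06 (SE 0.27, adjusted p = 0.0242)) and Atg16l2 (0.99 (SE 0.28, adjusted p = 0.0394)). Of 13 receptors 1 rose (7.69%), the endoplasmic reticulum receptor Retreg1 (1.77 (SE 0.33, adjusted p = 0.00654)). Of 25 regulators of TFEB and TFE3 that were kept 3 rose (12%): the Rag GTPases Rragd (1.03 (SE 0.20, adjusted p = 0.00716)) and Rraga (0.70 (SE 0.18, adjusted p = 0.0253)), which tether TFEB to the lysosome, and Lamtor3 of their anchor (0.60 (SE 0.18, adjusted p = 0.0442)). Of the genes of all these lists, 5 were called in LKO liver among 15 libraries (background 3.62%). Pqlc2 (0.93 (SE 0.18, adjusted p = 0.0129)) and a further gene rose, while Atg14 (-0.92 (SE 0.18, adjusted p = 0.0129)), Calcoco1 (-1.15 (SE 0.30, adjusted p = 0.0452)) and Foxo3 (-1.11 (SE 0.28, adjusted p = 0.0373)) fell. Among 16 libraries the WT calls on these lists were Cd63 (2.77 (SE 0.54, adjusted p = 0.0107)), Pqlc2 (0.94 (SE 0.21, adjusted p = 0.0207)) and Atg16l2 (1.13 (SE 0.28, adjusted p = 0.0336)), and in LKO limma called 0, with 10 at an unadjusted p under 0.05 and 0 by voom. Between the genotypes 1 gene of these lists was called, Fnip1 of the folliculin complex, lower in LKO in the mean of both diets among 15 libraries (-0.65 (SE 0.13, adjusted p = 0.0388), background 1.07%).

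Marker genes of the cells of the liver were read beside these results. All 12 macrophage and Kupffer cell markers were kept, and their summed level ran from 239 to 650 FPKM in WT control (median 403), 425 to 795 in WT ethanol without library 2 (median 662), 214 to 770.5 in LKO control (median 551) and 157 to 832 in LKO ethanol (median 286). Among 15 libraries 11 of 12 lay higher after ethanol in WT with a median of 0.51, Marco (1.91 (SE 0.46, adjusted p = 0.0185)) and Cd68 (1.47 (SE 0.41, adjusted p = 0.0375)) passing the test, whereas 11 of 12 lay lower in LKO with a median of -0.56 and 0 called by limma, with 1 at an unadjusted p under 0.05 (voom among 16: 0). On ethanol all 12 were lower in LKO than in WT (median -0.81), again with 0 called by limma, 3 at an unadjusted p under 0.05 and 0 by voom among 16. No macrophage marker was at 0 in any library. LKO ethanol library 2 held the highest summed macrophage markers of all 16 libraries (832 FPKM). In its group it held the highest values of all 7 raised members (Ctsl, Sqstm1, Hexa, Gusb, Gla, Ctsz and Neu1). LKO control libraries 1 and 2 held summed markers of 689 and 770.5 FPKM, with Ctsl at 267 and 251 and Sqstm1 at 141 and 135. LKO ethanol library 1 held 357, with Ctsl at 463 and Sqstm1 at 299.9. These are single libraries, and the share of all kept genes highest in LKO ethanol library 2 is not given. The part of these cells in the members' differences was not tested. Without LKO ethanol library 2 the LKO differences among 15 libraries went from 0.87 to 0.69 for Ctsl and from 1.1 to 0.65 for Sqstm1.

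Hepatocyte markers summed to 43253 to 75140 FPKM over the 16 libraries, and of their 6 genes Cyp2e1, the ethanol-oxidizing cytochrome, fell in WT (-1.72 (SE 0.39, adjusted p = 0.0143)). In the mean of both genotypes Cyp2e1 (-1.33) and Ttr (-0.54 (SE 0.15, adjusted p = 0.0186)) fell and Cps1, an enzyme of the urea cycle, rose (0.83 (SE 0.18, adjusted p = 0.00444)). Of the 5 endothelial markers Lyve1 rose in WT (2.58 (SE 0.39, adjusted p = 0.00244)) and in LKO (1.75 (SE 0.36, adjusted p = 0.0177)), while 3 of the 5 lay below 0 in each genotype. In the mean of both genotypes Pecam1 rose as well. The medians of the summed endothelial markers were 53.9 FPKM in WT control, 57.4 in WT ethanol without library 2, 55.5 in LKO control and 48.5 in LKO ethanol, with overlapping ranges. The 5 stellate cell markers had a median of 0.75 in WT and -0.07 in LKO with 0 called by limma among 15 libraries, 2 and 0 of them at an unadjusted p under 0.05, and 0 by voom among 16. Neutrophil markers summed to 1.41 to 19.1 FPKM with 2 of 5 kept and 0 called by limma in either genotype, with 0 in WT and 2 in LKO at an unadjusted p under 0.05 and 0 by voom, and Ly6g was at 0 in 14 of 16 libraries and Cxcr2 in 4. Of the cholangiocyte markers 1 of 4 was kept, Sox9, which rose in the mean of both genotypes (0.74 (SE 0.19, adjusted p = 0.0132)), and of the lymphocyte markers 1 of 5, Nkg7, which was not called, with Cd8a at 0 in 3 libraries.

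ZFP36L1 binds AU-rich elements in the 3′ untranslated region (3′UTR), so these were read in the longest annotated 3′UTR of each member (GENCODE M21 on GRCm38). The 7-mer TATTTAT was in 7 of 36 members (19.4%) and in 29.1% of the 10523 kept genes with a 3′UTR, at median lengths of 1232 and 1112 bases. The 9-mer TTATTTATT, which contains it, was in 2 of 36 (5.56%) and in 7.71% of the kept genes. Members with the 7-mer were Asah1, Becn1, Ctsb, Mcoln1, Neu1, Npc2 and Ulk1, so 1 of the 7 members that rose, Neu1, held it. Only the strand of the mRNA was searched. The sites of Neu1, at base 442 of 1090, and of Mcoln1, the member that lay lower in all LKO ethanol libraries, at base 160 of 280, are printed with the 7-mer in capitals.
Neu1, chr17:34935262-34935290, plus strand: gcacctttgatTATTTATgaatcgaaata
Mcoln1, chr8:3515093-3515121, plus strand: ggaccccagctTATTTATttttagaattt
Between LKO and WT on the control diet, Neu1 was at 0.11 (SE 0.13, adjusted p = 0.847) and Mcoln1 at 0.23 (SE 0.17, adjusted p = 0.706) among 15 libraries. Of the 5 others, Becn1 was at 0.03, Ctsb at 0.20, Asah1 at -0.16, Npc2 at 0.03 and Ulk1 at 0.16, none of them called.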

How the data were processed

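Total liver RNA of 16 samples was sequenced, and the labels put 4 in each of 4 groups by treatment. Replicate numbers follow record order, and the labels state no pairing. The authors deposited 1 table of FPKM values for 35275 Ensembl gene IDs. The submitters' processing notes name fastp, STAR 2.6.1, HTSeq, DESeq2 and the build mm10. The strandedness of the counting and the length rule behind FPKM are not given in the sources used here, so overlapping or antisense genes can share reads.

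The values, all multiples of what 1 read is worth, gave back whole reads: 100% of values lay within 0.1 of a whole read among 20520 genes above 0 in at least 4 libraries, at most 0.0606% of a library's reads staying unexplained. Totals were 9884479 to 24768501 reads. On simulated data the exact total was returned for 16 of 16 libraries.

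Genes with FPKM of at least 1 in at least 4 libraries were kept (11298). Values of log2(FPKM + 1) were fitted with limma 3.58.1 in R 4.3.3 (group means, eBayes with trend, two-sided, Benjamini-Hochberg over all genes kept) in 7 contrasts. limma's voom on the whole reads was an alternative; others changed the pseudocount, filter, scaling, weights, libraries and a side term. The side, the quantile scaling of 15 libraries and the leaving out of a further library were in part chosen after seeing the data.

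The members, all lists and the decision to show 15 libraries were chosen with earlier results of these data known. Named in full were members called in either fit; in each contrast the 3 highest and 3 lowest and Tfeb, Tfe3, Sqstm1, Map1lc3b and Lamp1 were also named, and of other lists at most the 3 genes with the smallest adjusted p. Symbols and positions came from GENCODE M21 on GRCm38, promoters from RefSeq on GRCm38.p6, matched by symbol. Values of 1 listed gene and 1 marker are not reported here.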

Additional observations from a re-analysis of the deposited data

Results flagged for a closer look

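For each member and group, a library was looked at again when its gap to the next one filled most of the group's range by Dixon's criterion for 4 libraries. Of 144 combinations of member and group 6 met it, where chance gives about 1 in 20. In LKO ethanol, library 2 was high for Lamp1 at 299.9 FPKM and for Npc2, a carrier of cholesterol, at 33.1 FPKM, and library 1 was high for Lamp2, a membrane protein needed for fusion with autophagosomes, at 195 FPKM. In WT ethanol, library 2, the one that stands apart, was low for Neu1 at 6.51 FPKM. In WT control, library 3 was high for Lipa at 102 FPKM, and in LKO control, library 3 was low for Atg5, which joins LC3 to lipid, at 16.8 FPKM. Of the 7 members that rose, Neu1 was the one with such a library.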

How the results depend on the processing

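The counts of members called depended on the scaling, the weights and the side term. In WT, where 1 of 36 was called among 16 libraries, the count was 3 after quantile normalization, 2 with median-of-ratios scaling, 18 with array weights, 4 with a side term, and, in 15 libraries, 7 as deposited, 10 with the side term and 6 after quantile normalization. In LKO it was 2 with array weights and, in 15 libraries, 1, 4 and 2. In the mean of both genotypes it was 6, 7 and 14 for quantile, median of ratios and array weights and, in 15 libraries, 7, 13 and 8. Array weights gave 21 members between genotypes on ethanol, 9 in the mean of both diets and 6 for the interaction, while the side term in 15 libraries gave 1 and 2 for the former comparisons. The lowest of the array weights was 0.0418, that of WT ethanol library 2. The highest was that of WT ethanol library 3, so this library weighed most in the WT ethanol group. Shares of all kept genes called are not given for array weights, nor for the quantile, median-of-ratios and side-term fits of 16 libraries. Where no such share is given for a setting, its counts do not set the members apart from other genes. A pseudocount of 0.1, no filter and voom on whole reads kept the counts within 1.5 times of those reported for 16 libraries.

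Leaving out 1 library from the 16 or from the 15, the counts ran from 0 to 15 in WT, 0 to 2 in LKO, 1 to 12 in the mean of both genotypes, 0 to 8 between genotypes on ethanol and 0 to 5 in the mean of both diets. An arm was never left with under 2 libraries. The share of all kept genes called is not given for these fits, so the ranges describe how the counts moved. Of the named differences among 16 libraries, these turned sign, each with its range over libraries left out where that range crossed 0. For Lamp1 the WT difference was 0.48 with array weights, 0.49 with the side term in 15 libraries and 0.50 after quantile normalization of 15 (range -0.54 to 0.63), the pooled one 0.22, 0.25 and 0.30, and 0.0024 after quantile normalization of 16 (-0.26 to 0.32), and the LKO one -0.060 with median of ratios and -0.054 with array weights (-0.076 to 0.055). Pooled Map1lc3b was 0.27, 0.090 and 0.048 in the same 3 settings (-0.14 to 0.25), and its WT range was -0.052 to 0.73. Npc1 was -0.32 and -0.032 with array weights and the side term between genotypes on ethanol (-0.55 to 0.99), -0.12 with array weights over both diets (-0.19 to 0.58), and 0.45 and 0.053 in WT (-0.97 to 0.57). Atg5 with the side term was -0.034 between genotypes on ethanol (-0.073 to 0.74) and -0.019 for the interaction (-0.079 to 0.76). Sqstm1 between genotypes over both diets was -0.030 and -0.011 with array weights and the side term (-0.21 to 0.47). Tfeb with array weights was 0.21 in WT (-0.48 to 0.019) and 0.055 pooled. Ranges also crossed 0 for Lipa (-1.15 to 0.059) and Tfe3 (-0.023 to 0.87) in WT and for Ulk1 between genotypes on ethanol (-0.063 to 0.90) and for the interaction (-0.22 to 0.75). No paired analysis was run, because the labels state no pairs, although a term for a number given in record order could have been fitted. Each title holds a number of its own. Several of these are consecutive between a control and an ethanol library of the same genotype and record number. Nothing in the labels says that they pair libraries, and whether a pairing would change the results was not tested. Depth limits the lowest members most, Gla with 36 to 262 reads per library.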

Other observations

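LKO ethanol library 2 stood high for several members at once. It held 757 FPKM of Sqstm1 where the other 3 libraries of its group held 161 to 299.9, 679 of Ctsl (320 to 483), 45.0 of Hexa (26.7 to 34.9) and 58.9 of Ctss (13.3 to 26.6). Cd63 was at 41.8 FPKM there and at 8.82 to 11 in the other 3. Its Lamp2 (162) and Tfeb (3.02) lay inside and below the range of the other 3, respectively.

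Ulk1 varied widely within every group: 13.4, 23.4, 14.1 and 33.4 FPKM in WT control, 9.10, 5.28, 15.7 and 22.8 in WT ethanol, 15.5, 15.8, 29.5 and 32.4 in LKO control and 25.5, 11.3, 31.0 and 11.7 in LKO ethanol libraries. Gabarapl1, a GABARAP family protein of the autophagosome, was at 127, 156, 190.0 and 147 FPKM in WT control, 297, 69.7, 154 and 157 in WT ethanol, 127, 176, 145 and 163 in LKO control and 185, 168, 123 and 105 in LKO ethanol libraries, so WT ethanol library 1 was the highest of the 16 and library 2 of that group the lowest.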
